A study of Mus musculus with 4 samples.

Results

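The genes described here are 45 that cells use to copy their DNA and to divide, followed in mouse fibroblasts in which the transcript of selenoprotein T was targeted. They were chosen by name, with earlier results of these data known, and were split by the cell cycle phase in which they are best known to act. The list held 7 genes of G1, 21 of S phase and 17 of G2 and mitosis (G2/M). Of the 45 genes, 42 had a probe that carried their name alone, 74 probes in all, among 12347 such genes and 22534 probes of the series. Mki67, Ccnb1 and Pola1 had no such probe and are named only.

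The knockdown cells were NIH 3T3, an established mouse fibroblast line, carrying the pU6-m3 vector with construct siSelT-1, which covers nucleotides 205 to 224 of the Selt mRNA (the gene is now named Selenot), or with siSelT-5, which covers nucleotides 971 to 989. They were set against NIH 3T3 carrying the pU6-m3 vector without a target sequence. All 3 kinds of cells had been selected with 150 µg/ml hygromycin B and grown in 10% serum with 100 nM sodium selenite. Whether each line was 1 clone or a pool is not given in the sources used here. Each construct was measured on 2 two-colour arrays, and replicates were separate cultures harvested on separate occasions.

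Every value is a log ratio of the channels of 1 array, read here as log2 of knockdown over vector. The base is not stated, and the direction is likely rather than settled. If it were turned, every sign, rank and call of higher or lower against vector would turn with it. It rests on the order of names in the sample titles and on the dyes, Cy5 for knockdown and Cy3 for vector on all 4 arrays. A gene-specific dye effect therefore stays in each ratio against vector and cancels between the constructs. No probe carried the name Selenot or Selt, so the level of the targeted transcript is not reported and could not serve as a check of the sample labels. The siSelT-1 arrays held values for 7689 and 9232 probes, the siSelT-5 arrays for 20268 and 18361. The 7038 probes measured on all arrays had medians of 0.19 and 0.09 with siSelT-1, and of 0.43 and 0.36 with siSelT-5. Results called centred are taken from these medians, which shift siSelT-1 by 0.14 and siSelT-5 by 0.39 on average. Of 12 fibroblast markers, 8 had a value on all 4 arrays. So did 0 of 5 epithelial, 2 of 4 endothelial and 1 of 5 macrophage markers, and a ratio gives no level by which to judge them. In bulk RNA, a change in the number of cycling cells and a change of RNA per cell cannot be told apart.

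As background, cells enter the cycle through D-type cyclins, which with CDK4 phosphorylate the retinoblastoma protein and so free E2F factors. E2F1 and its relatives turn on the genes of S phase, among them the MCM helicase, which unwinds DNA, the sliding clamp PCNA and the enzymes that make deoxynucleotides. Genes of G2 and mitosis come on later, largely through CHR elements and CCAAT boxes in their promoters, and their products build the spindle, separate the chromosomes and mark their own regulators for destruction. Serum-fed NIH 3T3 cultures cycle, so all 3 groups of genes are in use.

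The promoters of 4 members that stood in the reference table are shown as examples, to place these elements. Not shown are Cdca3, whose window held 2 CCAAT boxes and no E2F or CHR match, and Birc5, whose window held no match. Each is the 250 bases before the gene's start in RefSeq's GRCm38.p6 annotation, 5′ to 3′ on the gene's strand. Capitals mark a motif found on either strand. The E2F motif was spelled TTCCCGC in its first form, with TTGGCGC as the next form, then TTGCCGC and, as the last form, TTCGCGC. The CCAAT box was spelled by its name and reads ATTGG where it lies on the opposite strand, and the CHR element was TTTGAA in one form and TTCGAA in the other. Overlapping matches were kept.
Mcm2 promoter, chr6:88898781-88899030, minus strand: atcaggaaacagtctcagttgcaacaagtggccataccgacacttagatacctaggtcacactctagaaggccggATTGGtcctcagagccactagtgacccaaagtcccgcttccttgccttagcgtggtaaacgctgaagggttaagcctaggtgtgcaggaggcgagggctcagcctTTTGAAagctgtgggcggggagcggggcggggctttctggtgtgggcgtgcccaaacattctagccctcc
Pcna promoter, chr2:132253181-132253430, minus strand: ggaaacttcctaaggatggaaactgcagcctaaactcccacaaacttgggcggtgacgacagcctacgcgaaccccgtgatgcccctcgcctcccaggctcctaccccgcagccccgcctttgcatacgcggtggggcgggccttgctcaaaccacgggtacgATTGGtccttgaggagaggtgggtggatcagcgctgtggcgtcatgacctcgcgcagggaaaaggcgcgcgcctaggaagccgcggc
Rrm1 promoter, chr7:102441445-102441694, plus strand: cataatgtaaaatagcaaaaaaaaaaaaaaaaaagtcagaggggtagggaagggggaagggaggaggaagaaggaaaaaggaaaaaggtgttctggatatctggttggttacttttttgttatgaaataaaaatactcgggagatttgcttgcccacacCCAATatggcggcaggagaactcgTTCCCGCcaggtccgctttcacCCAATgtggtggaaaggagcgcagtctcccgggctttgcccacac
Cdc20 promoter, chr4:118437344-118437593, minus strand: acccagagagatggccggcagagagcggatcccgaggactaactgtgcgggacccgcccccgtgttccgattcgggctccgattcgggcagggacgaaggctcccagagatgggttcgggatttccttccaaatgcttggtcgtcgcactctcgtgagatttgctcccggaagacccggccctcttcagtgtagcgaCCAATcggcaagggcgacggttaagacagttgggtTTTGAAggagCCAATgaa
The Cdc20 window held a CHR match 18 bases before the start, between CCAAT boxes at 53 and 8 bases. The Rrm1 window held an E2F match at 67 bases and CCAAT boxes at 91 and 45, the Mcm2 window a CCAAT box at 175 and a CHR match at 70, and the Pcna window a CCAAT box at 87.

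Promoters were found for 39 of the 45 members, with the first listed start used for each gene. An E2F motif stood in 9 of 19 S phase promoters (47.4%), 3 of 15 G2/M promoters (20.0%) and 1 of 5 G1 promoters (20.0%), against 8.0% of 27025 promoters of all genes. A CCAAT box stood in 14 of 15 G2/M promoters (93.3%), 11 of 19 S phase promoters (57.9%) and 1 of 5 G1 promoters, against 34.5% of all. A CHR match stood in 7 of 15 G2/M promoters (46.7%), 4 of 19 S phase promoters (21.1%) and 0 of 5 G1 promoters, against 17.4% of all. A match describes the letters of the window and not a bound site.

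Measured values of the members were unevenly spread over the arrays. Of the 74 member probes, 16 (21.6%) had a value on all 4 arrays, against 34.5% of the 18129 probes with 1 gene name. A further 37 (50.0%) had values on both siSelT-5 arrays and on no siSelT-1 array, against 32.8% of all such probes. By gene, 11 members had a probe on all 4 arrays: 5 of G1, 4 of S phase and 2 of G2/M. Another 5 had at least 1 value for each construct, 22 were seen with siSelT-5 only, on both arrays, and 4 on a single siSelT-5 array. The 11 were tested together with all 4754 genes measured on all 4 arrays. Why a value is missing is not given in the sources used here.

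The 5 tested G1 members stood above vector with siSelT-5 as deposited, led by Ccnd1, for cyclin D1. Its log2 ratios were 0.42 and 0.23 with siSelT-1, and 1.18 and 1.35 with siSelT-5. Both siSelT-5 arrays lay above both siSelT-1 arrays. The mean was 0.33 ± 0.13 with siSelT-1 (SD, n = 2) and did not pass (limma, adjusted p = 0.116), while with siSelT-5 it was 1.27 ± 0.12 (n = 2), or 2.41-fold over vector, and rose (adjusted p = 0.00202, 95% interval 0.98 to 1.56). The siSelT-1 ratio passed without siSelT-5 replicate 1 or 2, where more of all genes passed than with all 4 arrays. There the siSelT-1 arrays alone set the spread, and they lay closer than the siSelT-5 arrays over all genes but not for Ccnd1. A siSelT-5 rise was also called after centring, at 0.88 (adjusted p = 0.0078). Ccnd1 had 4 probes with values on both siSelT-5 arrays, and their siSelT-5 means lay close together, from 1.17 to 1.36. With siSelT-1 its probes differed more, at 0.74 and 0.18 for one probe and 0.10 and 0.29 for another.

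Ccnd3 and Ccnd2 encode the other D-type cyclins and lay at smaller ratios. Ccnd3 had 0.51 and 0.41 with siSelT-1 and 0.58 and 0.87 with siSelT-5. Ccnd2 had 0.24 and 0.21 with siSelT-1 and 0.51 and 0.75 with siSelT-5. For each gene the siSelT-5 arrays again lay above the siSelT-1 arrays, and the siSelT-5 means of 0.72 ± 0.20 and 0.63 ± 0.17 (SD, n = 2 each) passed as deposited (limma, adjusted p = 0.00584 and 0.00759). After centring, 0.33 and 0.24 remained of these ratios and neither passed (adjusted p = 0.0862 and 0.158). With siSelT-1 neither passed (adjusted p = 0.0612 and 0.224). Ccnd3 passed at an unchanged siSelT-1 ratio of 0.46 without siSelT-5 replicate 1 or 2, where more of all genes also passed. Probes of Ccnd3 differed, with siSelT-5 means from 0.46 to 1.18. The lowest of them had 0.76 and 0.24 with siSelT-1 and 0.22 and 0.70 with siSelT-5. On that probe the constructs overlapped, so their separation holds for the average of the Ccnd3 probes.

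Cdk4, the kinase partner of the D cyclins, and E2f1, for the transcription factor at the end of that pathway, stood close to the bulk of genes. Cdk4 had 0.16 and -0.02 with siSelT-1 and 0.41 and 0.59 with siSelT-5. E2f1 had 0.46 and 0.08 with siSelT-1 and 0.72 and 0.40 with siSelT-5, and here the constructs overlapped. With siSelT-5 both passed as deposited (limma, means 0.50 and 0.56, adjusted p = 0.017 and 0.0239), though the calls were lost after centring, at 0.10 and 0.17 (0.485 and 0.335). The Cdk4 call was lost without either siSelT-1 array (0.0663) and the E2f1 call without either siSelT-1 array (0.0619) or without siSelT-5 replicate 1 (0.059).

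Over the G1 group, limma called 0 of 5 tested members with siSelT-1, where 10.3% of all 4754 genes passed as higher and 3.37% as lower. An unadjusted p under 0.05 was reached by 2 of the 5 and by 1653 of all 4754 genes. Without siSelT-5 replicate 1 or 2, Ccnd1 and Ccnd3 passed at unchanged siSelT-1 ratios of 0.33 and 0.46. In those fits the spread comes from the siSelT-1 arrays alone, and more of all genes passed than with no array left out. Those calls are therefore not read as a result about the G1 members. With siSelT-5 5 of 5 rose, where 47.6% of all genes passed as higher and 6.29% as lower. The median ratio was 0.63 for these members and 0.38 for all genes. After centring 1 of 5, Ccnd1, passed as higher, against 19.2% of all genes as higher and 20% as lower. Ccne1, for cyclin E1, which drives entry into S phase with CDK2, had no value on siSelT-5 replicate 1. Its best covered probe stood at 0.51 and 0.55 with siSelT-1 and at 1.37 on siSelT-5 replicate 2, and another probe at 2.12 on that array alone. In the fit that asks for 1 array of each construct, Ccne1 passed for siSelT-5 (adjusted p = 0.00693) and not for siSelT-1 (0.0883), with the spread of siSelT-5 taken from other genes and its siSelT-1 arrays. Cdk2 had -1.93 and -0.02 on the siSelT-5 arrays and did not pass (adjusted p = 0.0629), and another Cdk2 probe had -1.71 on replicate 2 alone.

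**Figure D1:**
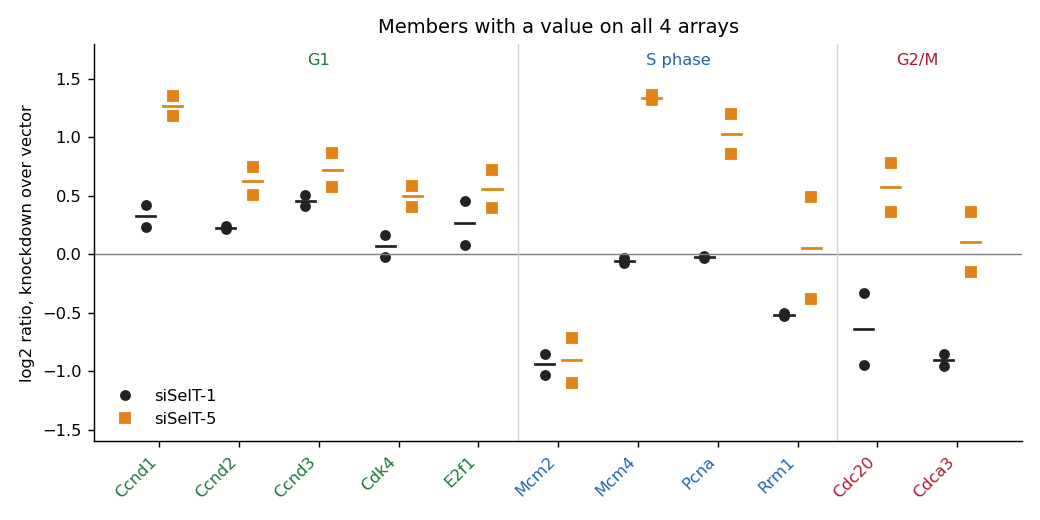
Log2 ratio of knockdown over vector on each array (y axis) for the 11 members measured on all 4 arrays (x axis), siSelT-1 as black circles and siSelT-5 as orange squares, with bars at the mean of 2 arrays. Mcm2 lies between -1.10 and -0.72 on all arrays, while Mcm4 is near 0 with siSelT-1 and at 1.36 and 1.32 with siSelT-5.

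S phase members moved in different directions, and Mcm2 stood apart in being low with both constructs. Mcm2, for a subunit of the MCM helicase, had -0.85 and -1.03 with siSelT-1 and -0.72 and -1.10 with siSelT-5. All 4 arrays were below 0 and the constructs overlapped. The mean was -0.94 ± 0.13 with siSelT-1 and -0.91 ± 0.27 with siSelT-5 (SD, n = 2 each), and both passed as lower (limma, adjusted p = 0.0302 and 0.00414), as they did after centring (-1.08 and -1.30, adjusted p = 0.0272 and 0.00645). In the direction used here these ratios were lower than all but 0.5% and 1.9% of the genes tested. The siSelT-1 call was lost without siSelT-1 replicate 1 (adjusted p = 0.587) and without replicate 2 (0.397), where 1 array is left for that construct. It missed the threshold when genes with a value on 1 array of each construct were tested (0.0542). The call rests on 1 probe.

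Mcm4, for another helicase subunit, differed from Mcm2. It had -0.08 and -0.03 with siSelT-1 and 1.36 and 1.32 with siSelT-5. Replicates of each construct were close and the constructs lay far apart. The siSelT-5 mean of 1.34 ± 0.03 (SD, n = 2), or 2.53-fold, rose (limma, adjusted p = 0.00202, and 0.00663 at 0.95 after centring), and the siSelT-1 mean of -0.05 ± 0.03 did not pass (0.752). A further Mcm4 probe, with siSelT-5 values alone, stood at -0.66 and -0.03 and so had the opposite sign. With all its probes averaged the siSelT-5 mean of Mcm4 was 0.50.

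Pcna encodes the sliding clamp that holds polymerases on DNA, and it followed the pattern of the first Mcm4 probe. It had -0.01 and -0.03 with siSelT-1 and 0.86 and 1.20 with siSelT-5. The siSelT-5 mean of 1.03 ± 0.24 (SD, n = 2), 2.04-fold over vector, rose as deposited and after centring (limma, adjusted p = 0.00264 and 0.0201), and the siSelT-1 mean of -0.02 ± 0.02 did not pass (0.92). Rrm1, for the large subunit of ribonucleotide reductase, had -0.50 and -0.53 with siSelT-1 and -0.38 and 0.49 with siSelT-5. Its siSelT-1 mean of -0.52 ± 0.02 (n = 2) lay lower than all but 4.2% of genes but did not pass (0.152), and its siSelT-5 arrays had opposite signs. Rrm1 passed as lower for siSelT-1 without siSelT-5 replicate 1 or 2. There the siSelT-1 arrays alone set the spread, and more of all genes passed than with all 4 arrays.

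Of the 4 tested S phase members, 0 rose and 1 fell with siSelT-1, and 2 rose and 1 fell with siSelT-5, as deposited and after centring. With siSelT-1 10.3% of all genes passed as higher and 3.37% as lower as deposited, and 3.83% and 5.07% after centring. With siSelT-5 these shares were 47.6% and 6.29% as deposited and 19.2% and 20% after centring. The median ratio was -0.29 with siSelT-1, against 0.14 for all genes, and 0.54 with siSelT-5, against 0.38 for all genes. After centring these medians were -0.43 and 0.15, against values within 0.02 of 0 for all genes. Mcm7 and Rfc4, for a helicase subunit and a subunit of the clamp loader, had 1 siSelT-1 value each, on replicate 2. Mcm7 had -0.64 there and 0.37 and -0.77 with siSelT-5, and Rfc4 had -0.41 there and 0.28 and -0.71 with siSelT-5. Neither passed with either construct in the fit that asks for 1 array of each (limma, adjusted p from 0.378 to 0.612), where the lone siSelT-1 array is assumed to vary like the siSelT-5 arrays.

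The 2 tested G2/M members were low with siSelT-1. Cdca3, whose product helps the degradation of the mitotic inhibitor WEE1, had -0.85 and -0.96 with siSelT-1 and 0.36 and -0.15 with siSelT-5. Its siSelT-1 mean of -0.91 ± 0.07 (SD, n = 2), or 0.534 of vector, fell (limma, adjusted p = 0.0328, and 0.0299 after centring) and in the direction used here lay lower than all but 0.5% of genes. The siSelT-5 mean of 0.11 ± 0.36 (n = 2) did not pass (0.578) and turned to -0.29 after centring (0.151). As for Mcm2, the siSelT-1 call was lost without siSelT-1 replicate 1 (0.587) or 2 (0.397), and with a value asked for on 1 array of each construct (0.0585).

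Cdc20, for the activator of the anaphase-promoting complex that starts chromosome separation, had -0.33 and -0.95 with siSelT-1 and 0.79 and 0.36 with siSelT-5. The signs differed between constructs on all arrays. The siSelT-1 mean of -0.64 ± 0.44 (SD, n = 2) missed the threshold (limma, adjusted p = 0.0775, and 0.0541 after centring), and lay lower than all but 2.3% of genes. It passed at an unchanged ratio without siSelT-5 replicate 1 or 2, where more of all genes also passed. The siSelT-5 mean of 0.57 ± 0.30 (n = 2) passed as deposited (0.049), did not pass after centring at 0.18 (0.432), and missed the threshold without either siSelT-1 array (0.0706) and without siSelT-5 replicate 1 (0.155). A second Cdc20 probe had -0.26 on siSelT-1 replicate 1 and 0.28 and -0.18 on the siSelT-5 arrays, and with both probes averaged the siSelT-5 mean was 0.31. Cdk1, for the kinase that drives mitosis, had 0.05 on siSelT-1 replicate 2 and -0.29 and -0.37 on the siSelT-5 arrays, and Cdca8, for a subunit of the chromosomal passenger complex, had -0.01 on siSelT-1 replicate 1 and 0.13 on siSelT-5 replicate 1. Neither passed with either construct (limma fit asking for 1 array of each, adjusted p from 0.103 to 0.983). The lone siSelT-1 array of Cdk1 is assumed to vary like its siSelT-5 arrays, and for Cdca8, with 1 array of each construct, the spread comes from other genes alone, so its p gives no check on its own replicates.

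**Figure D2:**
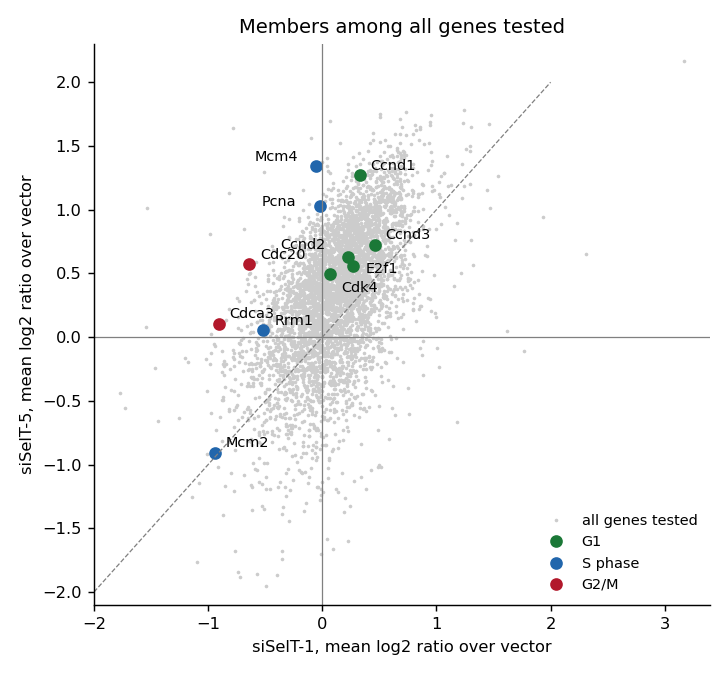
Mean log2 ratio over vector with siSelT-1 (x axis) and siSelT-5 (y axis) for all 4754 genes tested (grey) and the 11 members (coloured by phase), with a dashed line where the means are equal. Cdca3 and Cdc20 lie left of most genes and Mcm2 low on both axes, while Ccnd1, Mcm4 and Pcna lie high on the siSelT-5 axis.

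For both constructs together, 7 of 11 members rose and 2 fell, where 45.7% of all genes passed as higher and 8.04% as lower. After centring 3 rose and 2 fell, against 20.5% and 21.9% of all genes. Those that rose after centring were Ccnd1, Ccnd3 and Mcm4, and those that fell were Mcm2 and Cdca3. A gene moved by 1 construct can pass this contrast. Without siSelT-1 replicate 1, 0 members passed in limma, with 6 at an unadjusted p under 0.05 and an adjusted p of 0.0515 for Mcm2 and 0.0528 for Ccnd1. Without siSelT-1 replicate 2 fewer members passed than with no array left out, and the ratios of Mcm2 and Ccnd1 were -0.88 and 0.84. Fewer of all genes passed in both of these fits too, so the loss of calls is not particular to the members.

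The difference siSelT-1 minus siSelT-5 sets the constructs against each other, with dye effects cancelled. All 11 members had a negative difference as deposited, from -1.40 to -0.03, with a median of -0.57, against -0.26 for all genes. Only Mcm2 turned to a positive difference after centring, at 0.22. The differences furthest from 0 were those of Mcm4 at -1.40 (95% interval -1.77 to -1.02), Cdc20 at -1.21 (-1.88 to -0.54), Pcna at -1.05 (-1.50 to -0.60), Cdca3 at -1.01 (-1.55 to -0.47) and Ccnd1 at -0.94 (-1.36 to -0.53). Limma called 0 of the 11, in a comparison where 0.0631% of all genes passed. An unadjusted p under 0.05 was reached by 6 of the 11 and by 1697 of all 4754 genes. The adjusted p of these 5 genes lay between 0.0543 and 0.0577 as deposited and between 0.0755 and 0.118 after centring. With arrays centred on all their values, a setting in which 2512 of the 4754 genes passed, 9 members did. Leaving out a siSelT-5 array leaves the spread to the siSelT-1 arrays, which lay closer over all genes. Calls of members in those fits are not read as a result about the members.

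For 9 of the 11 members both siSelT-1 arrays lay below both siSelT-5 arrays, as they did for 52.6% of all genes, and for 0 the reverse held, against 11.9%. The 9 were 4 of 5 G1, 3 of 4 S phase and 2 of 2 G2/M members. After centring it was 6 of 11 members, against 32% of all genes. Mcm4, Pcna and Cdc20 were below 0 on both siSelT-1 arrays and above 0 on both siSelT-5 arrays, a pattern of 9.51% of all genes, or after centring of 2 members and 6.73% of all genes. For Mcm2, the interval of the difference ran from -0.52 to 0.45, and for Ccnd3 from -0.70 to 0.17. With 2 arrays each, a difference between the constructs within these bounds, or 0, remained possible. Differences beyond these bounds, such as that of Mcm4 at -1.40, also missed the threshold after adjustment. The spread between replicates was larger with siSelT-5 for all genes (root mean square SD 0.164 with siSelT-1 and 0.349 with siSelT-5) and for the 11 members (0.172 and 0.284).

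**Figure D3:**
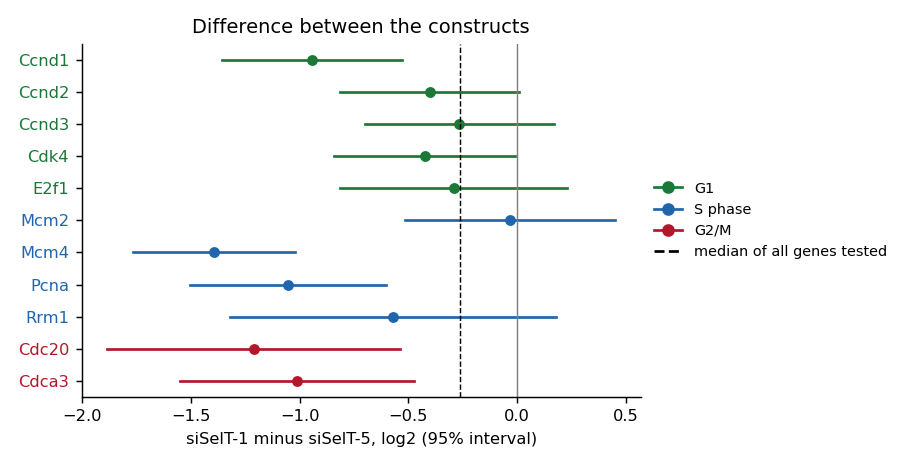
Difference siSelT-1 minus siSelT-5 in log2 (x axis) with its 95% interval for the 11 members (y axis), coloured by phase, with the median of all genes tested, -0.26, as a dashed line. The intervals of Ccnd1, Mcm4, Pcna, Cdc20 and Cdca3 lie left of that line, and those of the other members cross it.

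Most members could be seen with siSelT-5 alone. The 37 member probes with values on both siSelT-5 arrays and no siSelT-1 value covered 26 genes, some of which also had a probe on all 4 arrays. Their median siSelT-5 ratio was 0.10, against -0.61 over all 5954 such probes, and 31 of the 37 lay above that median. Replicate 1 gave 0.002 for these member probes and -0.58 for all such probes, and replicate 2 gave 0.01 and -0.61. The median was -0.04 for 24 S phase probes, 0.31 for 10 G2/M probes and 1.17 for 3 G1 probes, 2 of Ccnd1 and 1 of Cdk2. With probes averaged per gene, it was -0.12 for 16 S phase genes, 0.27 for 8 G2/M genes and 0.11 for the 2 G1 genes. Several probes share a gene, and the level of a ratio on these probes depends on how each array was centred.

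In limma on the 5954 probes, 4 of the 37 member probes passed as higher and 5 as lower, against 1.06% and 37.4% of all such probes. After centring on these probes, 8 passed as higher and 1 as lower, against 5.16% and 5.93%. The higher probes as deposited were 2 of Ccnd1 and 2 of Birc5. The Ccnd1 pair had 0.90 and 1.45 for one probe and 1.16 and 1.26 for the other. Birc5, for the chromosomal passenger protein survivin, had 0.63 and 1.01 for one probe and 0.96 and 0.86 for the other (means 0.82 and 0.91, adjusted p = 0.0457 and 0.029). Both pairs also passed after centring on these probes (adjusted p from 0.0183 to 0.0237), joined by a probe each of Top2a, Rrm2, Rfc5 and Tyms.

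Among the other mitotic genes, Top2a, for the topoisomerase that untangles chromosomes, had 1.24 and 0.13 and did not pass as deposited (adjusted p = 0.12). The kinase genes Aurka, Aurkb and Plk1 averaged 0.23, 0.39 and 0.30 and the centromeric histone gene Cenpa 0.23, and none of them passed as deposited or after centring. The Cenpa average came from arrays of opposite sign, at -0.17 and 0.63. Bub1, for a spindle checkpoint kinase, was low, at -1.50 and -0.75, and passed as deposited (limma, adjusted p = 0.0138) but not after centring on these probes (-0.53, 0.271). Bub1b, for its checkpoint partner, had -1.09 and 0.23 and did not pass (0.342). As deposited, the checkpoint gene Bub1 and the passenger gene Birc5 thus stood on opposite sides of vector.

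Among replication genes, Gins1, for a subunit of the replicative helicase complex, had -1.09 and -1.42 and passed as lower (limma, adjusted p = 0.00664), though not after centring on these probes (-0.66, 0.155). A probe of Mcm6 at -0.99 and -1.03 and a probe of the DNA ligase gene Lig1 at -1.25 and -0.66 did likewise (adjusted p = 0.0181 and 0.0268, and 0.358 and 0.45 after centring). Another Mcm6 probe had -0.11 and -0.54 and another Lig1 probe -0.46 and 0.74, and neither passed (limma, adjusted p = 0.42 and 0.762). The other helicase genes averaged -0.31 for Mcm3, 0.10 for Mcm5 and 0.38 for Mcm7 and did not pass. The clamp loader genes Rfc3, Rfc4 and Rfc5 averaged 0.08, -0.23 and 0.03, the flap endonuclease gene Fen1 0.17, the licensing factor gene Cdt1 -0.01 and the primase gene Prim1 -0.33. The small subunit gene of ribonucleotide reductase, Rrm2, averaged 0.33 over 3 probes and thymidine kinase, Tk1, 0.13 on 1 probe. The 2 arrays had opposite signs for Tk1 (-0.58 and 0.85), Mcm7 (1.10 and -0.33) and Fen1 (0.46 and -0.12). They also did for Mcm3, Mcm5, Rfc5 and Cdt1.

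**Figure D4:**
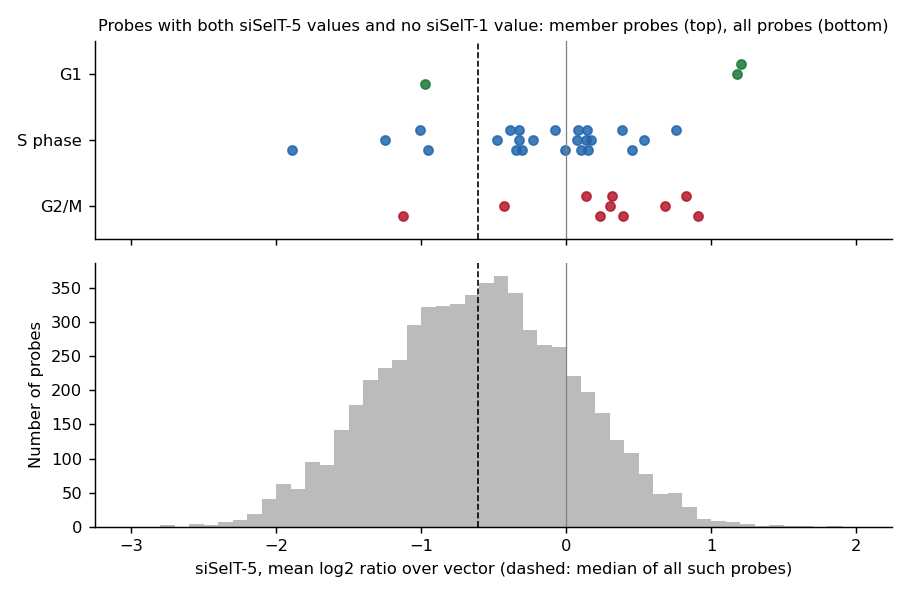
Mean siSelT-5 log2 ratio over vector (x axis) of the 37 member probes without a siSelT-1 value, by phase (top), and of all 5954 such probes as a histogram with the number of probes on the y axis (bottom). Member probes centre near 0, right of the dashed median of all such probes at -0.61.

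Probes of 1 gene did not always give 1 answer. Of 15 members with several probes on both siSelT-5 arrays, 10 had probes of 1 sign and 5 (Lig1, Mcm4, Mcm7, Rfc5 and Tyms) probes of opposite sign. Tyms, for thymidylate synthase, spanned most. Its 4 probes had siSelT-5 means of -1.89, -0.48, -0.08 and 0.54. The lowest, with -1.65 and -2.13, passed as lower as deposited and after centring on these probes (limma, adjusted p = 0.00103 and 0.0262), while the highest, with 0.28 and 0.80, passed as higher after that centring (0.0378). No direction is given for Tyms on this account. The 5 genes with opposite signs were S phase members, and the 10 of 1 sign were the S phase members Mcm6, Rfc4 and Rrm2 beside the 3 D cyclins, Cdk4, Birc5, Cdc20 and Cenpa. These signs are those of siSelT-5 means. With siSelT-1, a Cdk4 probe had -0.06 and -0.20 and another 0.38 and 0.16. The siSelT-5 arrays of 1 probe could also differ in sign, as for Cdc20 (0.28 and -0.18) and Cenpa (-0.45 and 1.09).

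**Figure D5:**
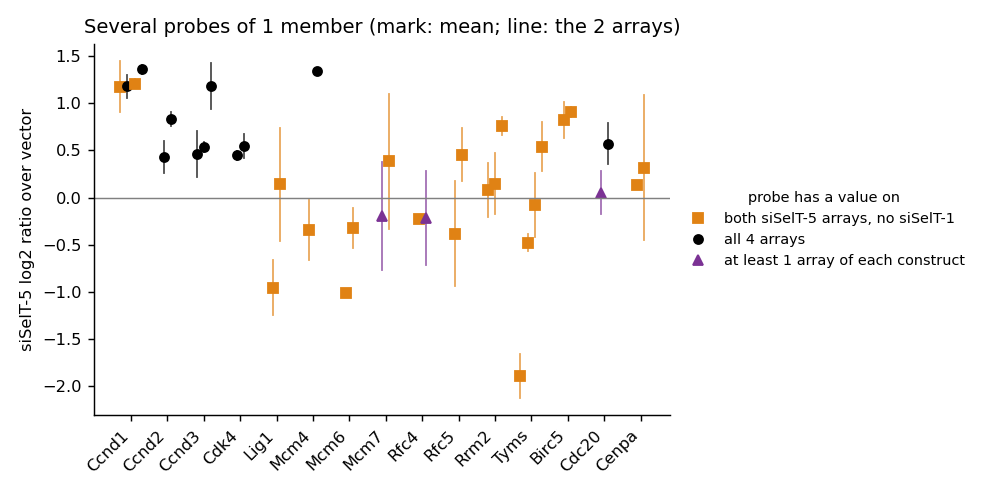
SiSelT-5 log2 ratios over vector (y axis) of each probe of the 15 members with several probes on both siSelT-5 arrays (x axis), as the mean (mark) and the 2 arrays (ends of the line), with marks by the arrays on which the probe has a value. Probes of Ccnd1 lie together between 1.17 and 1.36, and those of Tyms spread from -1.89 to 0.54.

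Some members had values on a single siSelT-5 array at best. On replicate 1, Ccna2, for cyclin A2, had 1.49, Ccnb2, for cyclin B2, -2.68, and Kif11, for the motor that separates spindle poles, -2.13. Cdc6, for the factor that loads the helicase at origins, had -1.41 on replicate 1 with one probe and -0.80 on replicate 2 with another. On replicate 1 alone the medians were -0.19 for 9 member probes and -1.25 for all 2537 such probes. Those 9 include probes of the better covered members Birc5, Rrm2, Tk1 and Plk1, at -0.35 to 0.58. Of the members seen on a single array at best, only Ccna2 lay above -1.25 there. On replicate 2 alone the medians were -0.80 for 5 member probes and -1.12 for all 1358. Beside Cdc6, those 5 were probes of the better covered members Ccne1, Cdk2, Lig1 and Mcm6. These values have no replicate and no test.

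Other genes of the same processes were taken from 3 lists. The genes named from each had its smallest unadjusted p for both constructs together, and all of them were higher. In that contrast 7 of 16 tested replication genes rose and 2 fell, as did 5 and 2 of 12 G1 and E2F genes. Of 25 mitosis genes 13 rose and 3 fell, where 45.7% of all genes passed as higher and 8.04% as lower. The genes that fell are not named. Of 55 other replication genes, 48 had a probe and 16 were tested, and 3 rose and 0 fell with siSelT-1 while 7 rose and 0 fell with siSelT-5. Over all genes 10.3% passed as higher and 3.37% as lower with siSelT-1, and 47.6% and 6.29% with siSelT-5, so the count of higher genes with siSelT-5 is near the share of all genes. Rpa1, for a subunit of the protein that coats single-stranded DNA, had 0.76 and 0.55 with siSelT-1 and 1.32 and 1.64 with siSelT-5. Rpa3, for another subunit, had 0.55 and 0.45 with siSelT-1 and 0.94 and 1.20 with siSelT-5. The clamp loader gene Rfc2 averaged 0.51 with siSelT-1 and 0.57 with siSelT-5, and Pole3, for a polymerase epsilon subunit, 0.29 and 0.95. After centring the counts were 0 and 0 with siSelT-1 and 4 higher and 3 lower with siSelT-5. The shares of all genes were 3.83% and 5.07% with siSelT-1 and 19.2% and 20% with siSelT-5. With siSelT-1 centred, 6 list genes had an unadjusted p under 0.05, as had 1548 of all 4754 genes. List medians were 0.06 with siSelT-1 and 0.40 with siSelT-5, against 0.14 and 0.38 for all genes.

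Of 41 genes that control G1 and E2F, 35 had a probe and 12 were tested. With siSelT-1 2 rose and 0 fell, and with siSelT-5 5 rose and 1 fell, or 0 and 0 and 3 and 3 after centring. With siSelT-1 centred, 8 had an unadjusted p under 0.05, as had 1548 of all 4754 genes. All genes passed as higher and lower in 10.3% and 3.37% with siSelT-1 and in 47.6% and 6.29% with siSelT-5, or in 3.83% and 5.07% and in 19.2% and 20% after centring. The genes named by smallest p included inhibitors of the cycle. Cdkn1a, for the CDK inhibitor p21, had 0.61 and 0.65 with siSelT-1 and 1.03 and 1.21 with siSelT-5, and Cdkn2c, for the CDK4 inhibitor p18, had 0.50 and 0.47 with siSelT-1 and 0.91 and 1.11 with siSelT-5. Mnat1, for the assembly factor of the CDK-activating kinase, averaged 0.44 with siSelT-1 and 0.72 with siSelT-5, and the cyclin I gene Ccni 0.46 and 1.07. For both constructs together these 4 genes passed as deposited (limma, adjusted p from 0.00161 to 0.00374), which follows from picking them by that p.

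Of 101 other G2 and mitosis genes, 85 had a probe and 25 were tested. With siSelT-1 0 rose and 2 fell, and with siSelT-5 18 rose and 2 fell, or 0 and 3 and 8 and 4 after centring. The shares of all genes were 10.3% higher and 3.37% lower with siSelT-1 and 47.6% and 6.29% with siSelT-5, or 3.83% and 5.07% and 19.2% and 20% after centring. The median was 0.09 with siSelT-1 and 0.57 with siSelT-5, against 0.14 and 0.38 for all genes. The tubulin gene Tubb5 had 0.40 and 0.41 with siSelT-1 and 1.37 and 1.37 with siSelT-5, and Rad21, for a cohesin subunit, had 0.30 and 0.27 with siSelT-1 and 1.13 and 1.23 with siSelT-5. The kinetochore gene Zwint averaged 0.38 with siSelT-1 and 1.05 with siSelT-5, and Anapc2, of the anaphase-promoting complex, 0.44 and 0.72. Limma called 0 of the 25 for siSelT-1 minus siSelT-5, and their median difference was -0.62, against -0.26 for all genes. An unadjusted p under 0.05 was reached there by 16 of the 25 and by 1697 of all 4754 genes. Probes of these lists with siSelT-5 values alone had medians of -0.54 for 21 replication probes, -0.63 for 26 G1 and E2F probes and -0.49 for 55 mitosis probes, against -0.61 for all such probes and 0.10 for the members' own.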

How the data were processed

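RNA of 4 knockdown cultures was measured against vector RNA on 4 two-colour arrays. The deposited values are log ratios, 1 per probe and array, and per the labels Cy5 holds the knockdown and Cy3 the vector. The authors' log ratios were used as deposited, read as log2 from their range. Background correction, normalization, centring and the reason for missing values are not given in the sources used here. Probes were named from the GEO platform annotation, updated by Entrez identifier with RefSeq, and those with several or no gene names were left out. Probes of a gene with a value on all 4 arrays were averaged. The limma package (version 3.58.1, under R 4.3.3) gave group means (2 residual degrees of freedom, eBayes), with Benjamini-Hochberg adjustment over all 4754 genes, two-sided, at an adjusted p of 0.05. The 5954 probes with siSelT-5 values alone were fitted apart, as single probes. The code was tested on simulated data. Alternatives were other centrings, a looser filter, single probes, robust eBayes, a replicate block and leaving out each array. The number of arrays limits the precision.

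The members, their groups and the further lists were chosen with earlier results of these data known. All members with a value are named, and up to 4 genes of each further list, those with the smallest unadjusted p for both constructs together. Replicates came from different cultures per the series' design text. Replicate numbers are shared by the constructs, but the deviations of same-numbered arrays from their group means had a correlation of 0.0758 over 4754 genes, so the numbers were not taken to pair arrays.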

Additional observations from a re-analysis of the deposited data

Results flagged for a closer look

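For Mcm4, Pcna and Cdc20 each siSelT-1 array lay below 0 and each siSelT-5 array above 0 on the probe tested. With siSelT-1 none of the 3 passed against vector (limma, adjusted p = 0.752, 0.92 and 0.0775), and after centring 2 of the 3 kept these signs. The difference siSelT-1 minus siSelT-5 was -1.40 for Mcm4, -1.05 for Pcna and -1.21 for Cdc20 on the log2 scale (n = 2 arrays each). The limma test of the difference did not pass after adjustment over all genes (adjusted p = 0.0543, 0.0543 and 0.0577). The siSelT-1 values of Mcm4 and Pcna were within 0.08 of 0, and a second Mcm4 probe, without siSelT-1 values, had a mean of -0.34 with siSelT-5. A second Cdc20 probe had 0.28 and -0.18 on the siSelT-5 arrays, of opposite signs.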

How the results depend on the processing

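With 2 arrays per construct, leaving out 1 array moved the counts, and an array left alone is assumed to vary like the other construct. For both constructs together 2554 genes and 9 members passed, and leaving out 1 array gave 0 to 3190 genes and 0 to 10 members, with 1846 genes at an unadjusted p under 0.05 in limma where the count was 0 (without siSelT-1 replicate 1). For siSelT-1, 650 genes and 2 members became 0 to 2089 genes and 0 to 6 members, with 390 and 585 genes at an unadjusted p under 0.05 without replicate 1 and replicate 2 of siSelT-1. For siSelT-5, 2563 genes and 9 members became 1623 to 3027 genes and 6 to 11 members. For siSelT-1 minus siSelT-5, 3 genes and 0 members became 0 to 1796 genes and 0 to 8 members. Centring on shared probes gave 5 members for both constructs, 423 genes for siSelT-1 and 4 members for siSelT-5. Centring on all values gave 324 genes for siSelT-1, and 2512 genes (39 higher, 2473 lower) and 9 members for the difference. Asking for 1 array of each construct left 67 genes and 0 members for siSelT-1 (5 members and 1709 of 6024 genes at an unadjusted p under 0.05). Of the 5954 probes with siSelT-5 values alone 2290 passed, or 660 when centred on these probes and 1374 when centred on all values. Leaving out an array there leaves 1 and no test, and was not run.

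The replicate block left 35 genes and 0 members for siSelT-1 in limma, with Mcm2 and Cdca3 at an adjusted p of 0.0534 each. There 5 members and 1660 genes had an unadjusted p under 0.05. For the difference the block left 0 genes (1674 at an unadjusted p under 0.05). The numbers are only shared between constructs (correlation of deviations 0.0758), so this says nothing of a weaker effect. Directions turned for small ratios. Cdc20 for both constructs was 0.0094 when centred on all values and -0.1887 to 0.1214 with an array left out. Cdk4 with siSelT-1 was -0.0682 centred on shared probes, -0.0513 centred on all values and -0.0198 to 0.1634 with an array left out. With siSelT-5, centring on shared probes gave -0.34 for Rrm1 and -0.29 for Cdca3, and leaving out an array -0.38 to 0.49 for Rrm1 and -0.15 to 0.36 for Cdca3. For Mcm2 the difference was 0.22 centred on shared probes and -0.22 to 0.16 with an array left out. Averaging all probes of a gene moved Mcm4 with siSelT-5 to 0.50, Cdc20 with siSelT-5 to 0.31 and Cdk4 with siSelT-1 to 0.22. Beyond the construction of each alternative, the cause was not tested.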
